A study of Homo sapiens with 19 samples.

Results

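The 8 genes described here, RUNX1, RUNX2, RUNX3, ERG, FLI1, ETV6, MYB and IKZF1, encode transcription factors of blood stem and progenitor cells and of leukaemia, and they were taken by name from the 20033 protein-coding genes of the GENCODE annotation of hg38. The H3K27ac mark, an acetyl group on lysine 27 of histone H3 found at active promoters and enhancers, was measured by chromatin immunoprecipitation and sequencing in 4 human leukaemia cell lines, with 1 library per line. Acute myeloid leukaemia (AML) is the source of HL-60, Molm13 and OCI-AML3, and the blast crisis of a chronic myeloid leukaemia is the source of K562. HL-60 and Molm13 cells were untransduced, whereas OCI-AML3 and K562 cells carried catalytically dead Cas9 fused to the KRAB repressor domain together with an empty guide vector and were sorted for both reporters, so that vector and cell line cannot be told apart. A peak is an interval in which the authors' peak caller found more reads than in the local background, and its fold enrichment is the ratio that the caller gave for it.

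RUNX1, RUNX2 and RUNX3 share the Runt DNA-binding domain and bind DNA together with CBFB. ERG, FLI1 and ETV6 belong to the ETS family, in which ERG and FLI1 are known mainly as activators and ETV6 as a repressor. MYB drives the proliferation of immature blood cells, and IKZF1 encodes Ikaros, a zinc finger factor of lymphoid development. Several of these genes are translocated or mutated in leukaemia, and each RUNX gene is known to be transcribed from a distal promoter (P1) and a proximal promoter (P2).

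The lists held 20772 peaks on the main chromosomes in HL-60 cells, 35136 in Molm13 cells, 37571 in OCI-AML3 cells and 37424 in K562 cells. The read depth behind them is unknown and the fold enrichments lie on different scales, with list medians from 2.85 in K562 to 3.8 in Molm13. A fold was therefore compared only with the other peaks of its own list and is given with its percentile there. With 1 library per line there was no replicate error and no test between lines, and a gene without a peak is a gene without a called peak at an unknown depth. A peak lay within 500 bp of a transcription start site (TSS) for 10 of 12 erythroid marker genes in K562 and for 2 of 12 in each AML line. The same was true of 8, 11 and 12 of 13 myeloid marker genes in HL-60, Molm13 and OCI-AML3 and of 6 in K562. The alpha-globin genes HBA1 and HBA2 had no TSS peak in any line, although 30% of the HBA1 body lay inside peaks in K562. Of 7 T cell markers, TCF7 in K562 was the only gene with a TSS peak in any of the 4 lists. Of 6 B cell markers, 3 had a TSS peak in HL-60 and in K562 and 2 in Molm13 and in OCI-AML3.

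To show the DNA at which the paired promoters of a RUNX gene differed, 6 promoter windows of the hg38 reference are given first. Each holds the 250 bases upstream of the promoter's first coding TSS, or of its first TSS of any transcript where an exon of the gene reached into that window. Letters run 5′ to 3′ on the strand of the gene. Capitals mark the RUNX motif, TGTGGT, which appears here on the opposite strand of the gene as ACCACA in each case. The ETS motif, GGAAGT, was searched on both strands as well and was not found in these windows, and no motif in capitals overlapped another. The windows are RUNX1 P1 (chr21:35049345-35049594, minus strand), RUNX1 P2 (chr21:34888691-34888940, minus strand), RUNX2 P1 (chr6:45327907-45328156, plus strand), RUNX2 P2 (chr6:45421786-45422035, plus strand), RUNX3 P1 (chr1:24965122-24965371, minus strand) and RUNX3 P2 (chr1:24930277-24930526, minus strand).
RUNX1 P1: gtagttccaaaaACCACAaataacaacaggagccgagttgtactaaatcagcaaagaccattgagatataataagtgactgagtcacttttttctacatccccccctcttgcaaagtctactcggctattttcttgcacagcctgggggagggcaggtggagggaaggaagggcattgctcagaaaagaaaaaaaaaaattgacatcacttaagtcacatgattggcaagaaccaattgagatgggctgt
RUNX1 P2: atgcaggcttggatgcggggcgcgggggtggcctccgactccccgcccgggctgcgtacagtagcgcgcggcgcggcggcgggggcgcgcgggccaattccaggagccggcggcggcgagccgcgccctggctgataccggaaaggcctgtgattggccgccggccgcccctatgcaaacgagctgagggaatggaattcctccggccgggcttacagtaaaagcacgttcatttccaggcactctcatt
RUNX2 P1: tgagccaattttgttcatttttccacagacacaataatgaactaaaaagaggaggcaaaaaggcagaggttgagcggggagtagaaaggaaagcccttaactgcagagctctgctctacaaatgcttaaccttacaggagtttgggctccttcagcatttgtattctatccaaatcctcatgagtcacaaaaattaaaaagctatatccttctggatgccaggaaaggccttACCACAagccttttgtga
RUNX2 P2: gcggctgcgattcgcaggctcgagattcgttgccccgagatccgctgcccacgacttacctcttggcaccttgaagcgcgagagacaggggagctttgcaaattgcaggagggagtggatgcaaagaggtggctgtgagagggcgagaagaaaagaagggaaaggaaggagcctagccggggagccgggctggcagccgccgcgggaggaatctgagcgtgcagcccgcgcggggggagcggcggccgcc
RUNX3 P1: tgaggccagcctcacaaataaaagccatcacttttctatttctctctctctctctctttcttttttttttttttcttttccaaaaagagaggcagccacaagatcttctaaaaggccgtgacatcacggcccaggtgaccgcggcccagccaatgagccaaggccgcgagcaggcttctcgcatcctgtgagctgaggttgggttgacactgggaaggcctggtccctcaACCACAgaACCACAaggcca
RUNX3 P2: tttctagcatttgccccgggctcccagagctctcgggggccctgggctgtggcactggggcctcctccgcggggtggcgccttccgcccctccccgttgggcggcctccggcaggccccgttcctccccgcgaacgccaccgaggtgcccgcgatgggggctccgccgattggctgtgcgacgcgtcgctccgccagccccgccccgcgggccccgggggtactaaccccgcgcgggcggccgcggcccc

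All 3 distal RUNX windows held the RUNX letters, and none of the proximal RUNX windows did. The match began 238 bases upstream of the start in RUNX1 P1 and 18 bases upstream in RUNX2 P1. RUNX3 P1 held 2 matches, which began 20 and 12 bases upstream. The distal windows were also poorer in G and C, with 42.8% in RUNX1, 41.6% in RUNX2 and 51.2% in RUNX3, against 69.2%, 65.6% and 78.4% in the proximal windows and a median of 61.2% over 19679 protein-coding promoters. The RUNX2 P2 window runs over an exon of a long non-coding RNA on the opposite strand. The 19679 promoters hold a single window per gene, at its most upstream coding TSS. The 8 genes give every promoter that starts a coding transcript of the basic GENCODE set, so the sets are unlike. At the 8 genes 4 of 17 such promoters held the RUNX letters, against 9.59% of the 19679 promoters, and the fourth was the internal promoter 2 of IKZF1. The ETS letters were found in 0 of 17 against 20%, and the MYB letters AACNG in 10 of 17 against 68.2%. The GATA letters AGATAA were found in 2 of 17, at ERG promoter 4 and FLI1 promoter 2, against 7.06%. A match describes the letters of the window and says nothing of binding.

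Most of the 8 genes were marked at a TSS, and K562 was the line with the fewest. A peak within 500 bp of any annotated TSS was present for 7 of 8 genes in HL-60 cells, 7 in Molm13 cells, 8 in OCI-AML3 cells and 4 in K562 cells. The same held for 44.7%, 53.9%, 57.7% and 55.9% of all protein-coding genes. The 8 genes have many start sites, and among the 9029 protein-coding genes with at least 3 promoters, as each of the 8 has, the shares were 55.4%, 65.9%, 70.6% and 67.9%. RUNX1, ETV6, MYB and IKZF1 were marked in all 4 lines, as were 49.8% of those 9029 genes. RUNX2, RUNX3 and FLI1 were marked in the 3 AML lines and not in K562, a pattern shown by 2.96% of those genes. ERG was marked at a TSS in OCI-AML3 alone.

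Start sites within 1 kb of each other were joined into promoters and numbered from the 5′ end of the gene, which gave 41 promoters for the 8 genes. Peaks marked 12 of them (29.3%) in HL-60 cells, 18 (43.9%) in Molm13 cells, 21 (51.2%) in OCI-AML3 cells and 10 (24.4%) in K562 cells. Of all promoters of protein-coding genes, 16.9%, 22.5%, 24.6% and 25.4% were marked in those lines. The promoter share at the 8 genes lay above this background in the 3 AML lists and near it in the K562 list. These counts are not of separate peaks, because 1 peak can mark several promoters, as at RUNX1 promoters 7, 8 and 9 in each line. The peaks at start sites within the 8 gene bodies numbered 10, 12, 14 and 5. In all 4 lines 9 of the 41 promoters were marked, against 14.3% of all promoters, and 18 were marked in none, against 67.4%. Promoters that start a coding transcript of the basic GENCODE set were marked in 9, 10, 13 and 7 of 17 cases in HL-60, Molm13, OCI-AML3 and K562, against 33.6%, 41.7%, 45.3% and 44.6% of all such promoters. The others were marked in 3, 8, 8 and 3 of 24 cases, against 4.23%, 7.84%, 8.80% and 10.8%.

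RUNX1, a gene required for the emergence of blood stem cells, was marked at P1 and at P2 in all 4 lines. It lies on the minus strand at chr21:34787801-36004667. The peak at P1 was 2.21 kb wide in HL-60 cells, 2.73 kb in Molm13 cells, 6.64 kb in OCI-AML3 cells and 4.92 kb in K562 cells, at percentiles 63.6, 63.7, 82.9 and 42.2 of fold enrichment within the lists. The peak at P2 was 5.06 kb wide in HL-60 cells, 9.76 kb in Molm13 cells, 12.7 kb in OCI-AML3 cells and 8.65 kb in K562 cells, at percentiles 95.4, 88.6, 94.4 and 68.7. In every line the P2 peak was thus the wider and the more enriched of the pair. An intronic region about 142.0 kb downstream of P1 (chr21:34901698-34912975) was also marked in all 4 lines, and its largest peaks stood at percentiles 88.9 in HL-60 cells, 86.7 in Molm13 cells, 96 in OCI-AML3 cells and 84.5 in K562 cells. The first 5 promoters, which lie up to 955 kb upstream and start no coding transcript of the basic set, had no peak in any line.

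RUNX2, best known as a master regulator of bone formation, was marked at P2 and not at P1. It lies on the plus strand at chr6:45328157-45664349, and its distal promoter, which starts the MANE Select transcript, had no peak in any line. The P2 peak was 3.91 kb wide in HL-60, 9.33 kb in Molm13 and 23.4 kb in OCI-AML3, at percentiles 78.1, 96.1 and 93.3. K562 had no peak there, and its nearest RUNX2 peaks further along the gene lay about 105.9 and 109.1 kb from the MANE Select TSS, against 93.7 kb for P2. In all 4 lines the most enriched peak in the RUNX2 body lay within 500 bp of a TSS of another gene, SUPT3H, inside a RUNX2 intron about 49.6 kb from P1. Its percentiles were 93.4 in HL-60 cells, 98.6 in Molm13 cells, 96.2 in OCI-AML3 cells and 94.1 in K562 cells. Intronic regions about 117.7 and 166.6 kb from P1 were marked in all 4 lines as well.

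RUNX3, a regulator of T cell and other lymphoid lineages, differed between the AML lines in which of its promoters had a peak within 500 bp. The gene occupies chr1:24899511-24965121 on the minus strand. P1 was marked in Molm13, by a peak of 2.65 kb at percentile 83.2, and in OCI-AML3, by a peak of 4.11 kb at percentile 82.4. P2, the start of the MANE Select transcript, was marked in OCI-AML3 by a peak of 1.31 kb at percentile 57.2 and in no other line. HL-60 had a peak of 1.38 kb at percentile 73.1 at promoter 3, 1.48 kb downstream of P2. This promoter starts no coding transcript of the basic set. Molm13 had a peak of 0.365 kb at percentile 8.7 there. The HL-60 peak (chr1:24928217-24929591) overlapped the OCI-AML3 peak at P2 (chr1:24929417-24930731). The P2 difference between these lines therefore rests on the 500 bp window. With that window and coding transcripts of the basic set alone, RUNX3 was not marked in HL-60. K562 had no peak in the RUNX3 body and 1 peak within 100 kb, of 0.885 kb at percentile 1.24.

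Of 19 joined regions at RUNX3 and the 100 kb on either side, 6 (31.6%) were marked in all 3 AML lines and not in K562. Over all regions this share was 3.88%. HL-60, Molm13 and OCI-AML3 each had 3 (15.8%) of their own, against 8.53%, 12.7% and 14.6% of all regions. In each of HL-60, Molm13 and OCI-AML3 a peak lay about 81.8 kb downstream of P2 beyond the 3′ end of the gene (chr1:24847863-24849185), at percentiles 89.3, 96.4 and 92.3. Upstream of P1, regions about 92.1 and 102.8 kb from P2 were marked in the same 3 lines and not in K562. Their peaks stood at percentiles 71.7, 79.5 and 72 and at percentiles 85.3, 73.5 and 80.6 in HL-60, Molm13 and OCI-AML3.

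FLI1, an ETS factor of stem cells and megakaryocytes, was marked at its main promoter in the 3 AML lines. FLI1 spans chr11:128686535-128813267 on the plus strand. The peak at this promoter was 2.71 kb wide in HL-60, 3.01 kb in Molm13 and 4.14 kb in OCI-AML3, at percentiles 83.3, 73.1 and 99.1. Intronic regions about 24.4 and 32.8 kb downstream were marked in the same 3 lines. The upstream coding promoter, 7.54 kb before the MANE Select TSS, had no peak in any line. K562 had 0 peaks in the FLI1 body and 0 within 100 kb, and K562 and FLI1 were the only pair of line and gene, among the 4 lines and 8 genes, with no peak at all.

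ERG, an ETS factor of stem cells and endothelium, had no TSS peak outside OCI-AML3. ERG spans chr21:38380027-38661780 on the minus strand. HL-60 had 7 peaks in its body and none at a TSS, the largest of 2.24 kb at percentile 79.3, about 21.4 kb downstream of the MANE Select TSS. OCI-AML3 had 4, among them a peak of 1.19 kb at percentile 43.1 at the 2 most upstream promoters. Molm13 had 0 in the body and 1 in the flank, of 0.986 kb at percentile 55.1. K562 had 1, of 0.858 kb at percentile 7.76, which was lost when peaks with a q-value (a p-value adjusted by the caller) of 0.05 or more were left out. The MANE Select promoter of ERG had no peak in any line. Of the 16 joined regions at ERG, 8 (50%) were marked in HL-60 alone, against 8.53% of all regions. With a q-value below 0.001 the share of the ERG body covered in HL-60 fell from 2.93% to 1.19%.

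**Figure D1:**
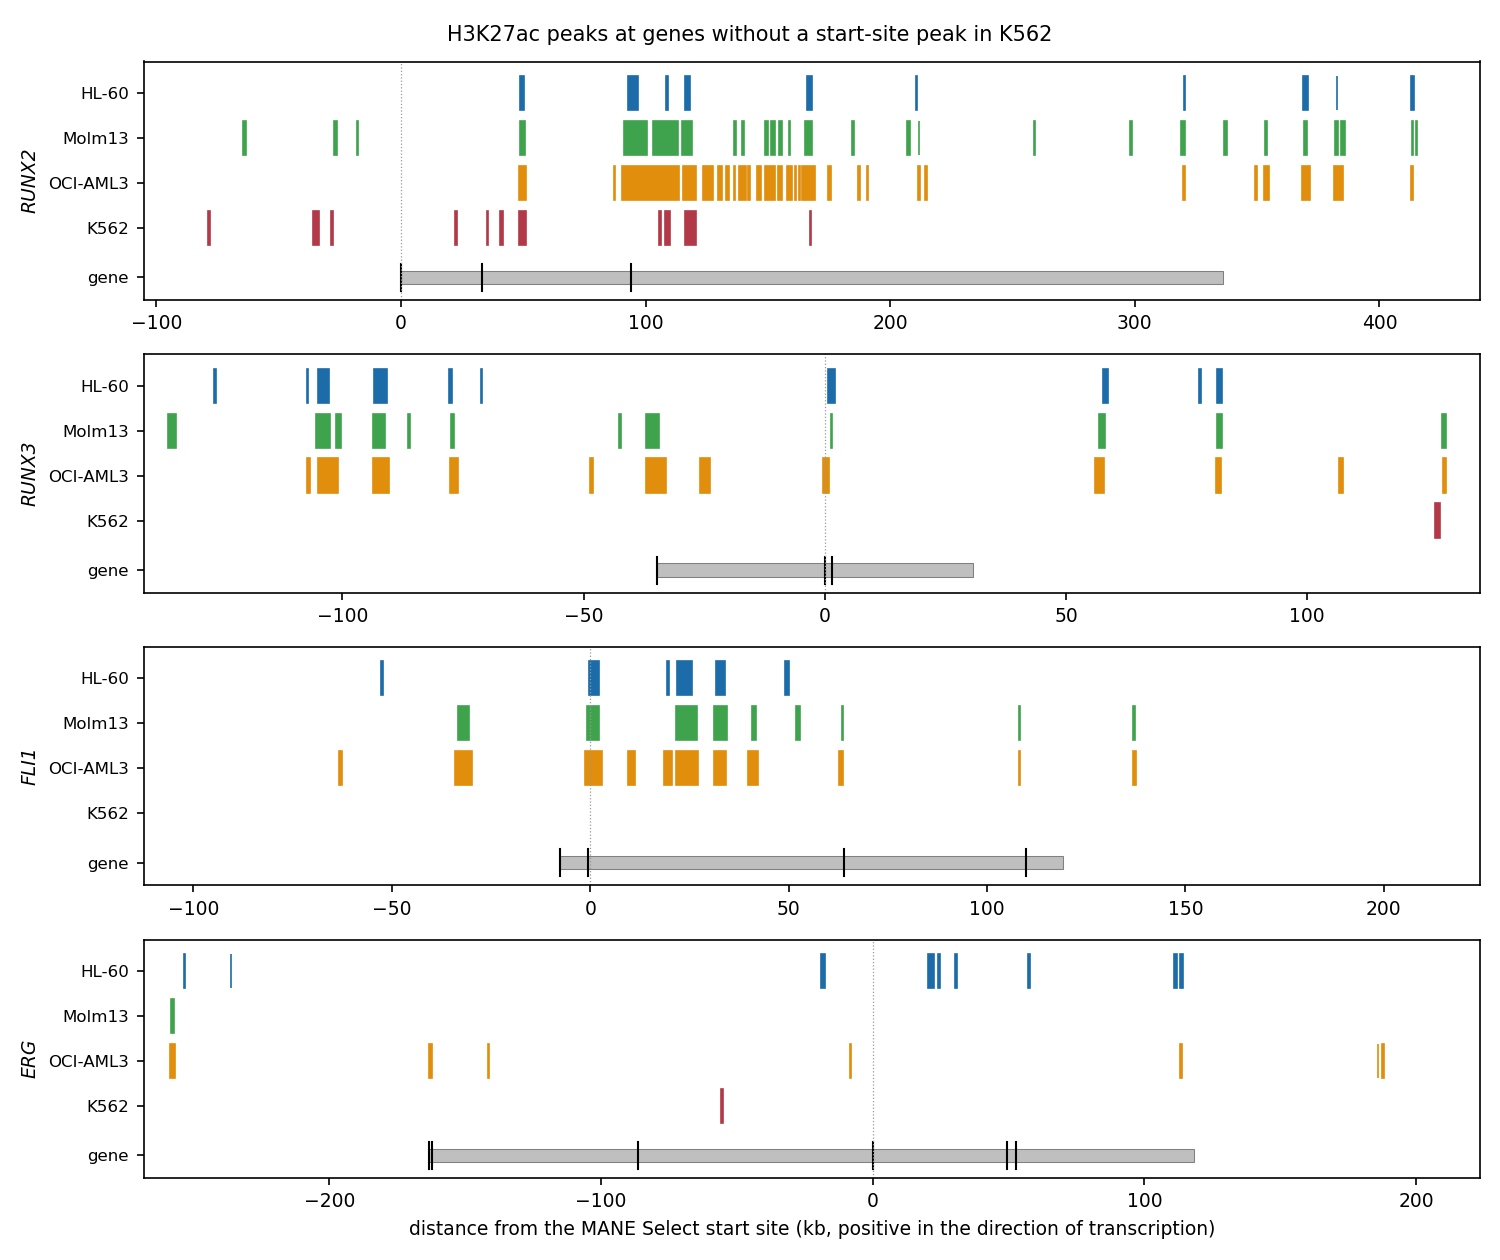
Peaks of each line (coloured boxes, 1 row per line) at RUNX2, RUNX3, FLI1 and ERG against the distance from the MANE Select start site in kb, positive in the direction of transcription; the grey bar is the gene and black ticks are its promoters, and boxes carry an outline that keeps narrow peaks visible. The K562 row is empty at FLI1 and holds 1 peak at RUNX3 and 1 at ERG, while at RUNX2 it holds 11.

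ETV6, an ETS repressor needed for adult blood stem cells, had a marked promoter in all 4 lines and a body marked mainly in Molm13 and OCI-AML3. ETV6 occupies chr12:11649674-11895377 on the plus strand. The promoter peak was 6.88 kb wide in HL-60 cells, 10.5 kb in Molm13 cells, 11.5 kb in OCI-AML3 cells and 4.12 kb in K562 cells, at percentiles 85, 97.5, 99.9 and 88.7. Within the body, OCI-AML3 had a peak of 85.5 kb (chr12:11733876-11819405) where Molm13 had several, the longest of 23.9 kb. HL-60 had 14 narrower peaks along the gene, and K562 had 4 peaks in all. No peak of HL-60 or K562 lay in the 100 kb on either side.

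MYB, a factor that keeps progenitors dividing, was covered by peaks over most of its length in Molm13, OCI-AML3 and K562. It lies on the plus strand at chr6:135181308-135219173 and is the shortest of the 8 genes, at 37.9 kb. A peak of 25.3 kb in Molm13, 39.4 kb in OCI-AML3 and 20.7 kb in K562 ran over the promoter into the gene, at percentiles 87.3, 92.5 and 88.1. In HL-60 the promoter peak was 3.66 kb wide, at percentile 71.4. Regions about 33.8 kb upstream (chr6:135144230-135150810) and 51.7 kb downstream of the start (chr6:135229618-135236305) were marked in all 4 lines. The most enriched peaks in the 100 kb around MYB in Molm13 and OCI-AML3 lay about 102.5 and 102.0 kb downstream, at percentiles 92.5 and 99.5, and further peaks downstream lay at start sites of the neighbouring gene AHI1.

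IKZF1 was marked at its main promoter and at promoter 2, 3.96 kb downstream, in all 4 lines. The gene spans chr7:50304068-50405101 on the plus strand. In HL-60 the peaks at these promoters were separate, 1.02 and 1.8 kb wide, at percentiles 67 and 23. The HL-60 call at promoter 2 thus rests on a weak peak, which ended short of the start sites but within 500 bp. In the other lines 1 peak spanned them, 5.64 kb wide in Molm13, 6 kb in OCI-AML3 and 8.51 kb in K562, at percentiles 79.7, 83.5 and 94.2. Intronic regions about 31.3 and 51.5 kb downstream were marked in all 4 lines, and the former held the longest IKZF1 peak of each list. An upstream region at about 76.8 kb was shared by all 4 lines, and a peak about 22.2 kb upstream stood at percentile 91.5 in OCI-AML3 and, at 22.1 kb, at percentile 88 in Molm13.

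**Figure D2:**
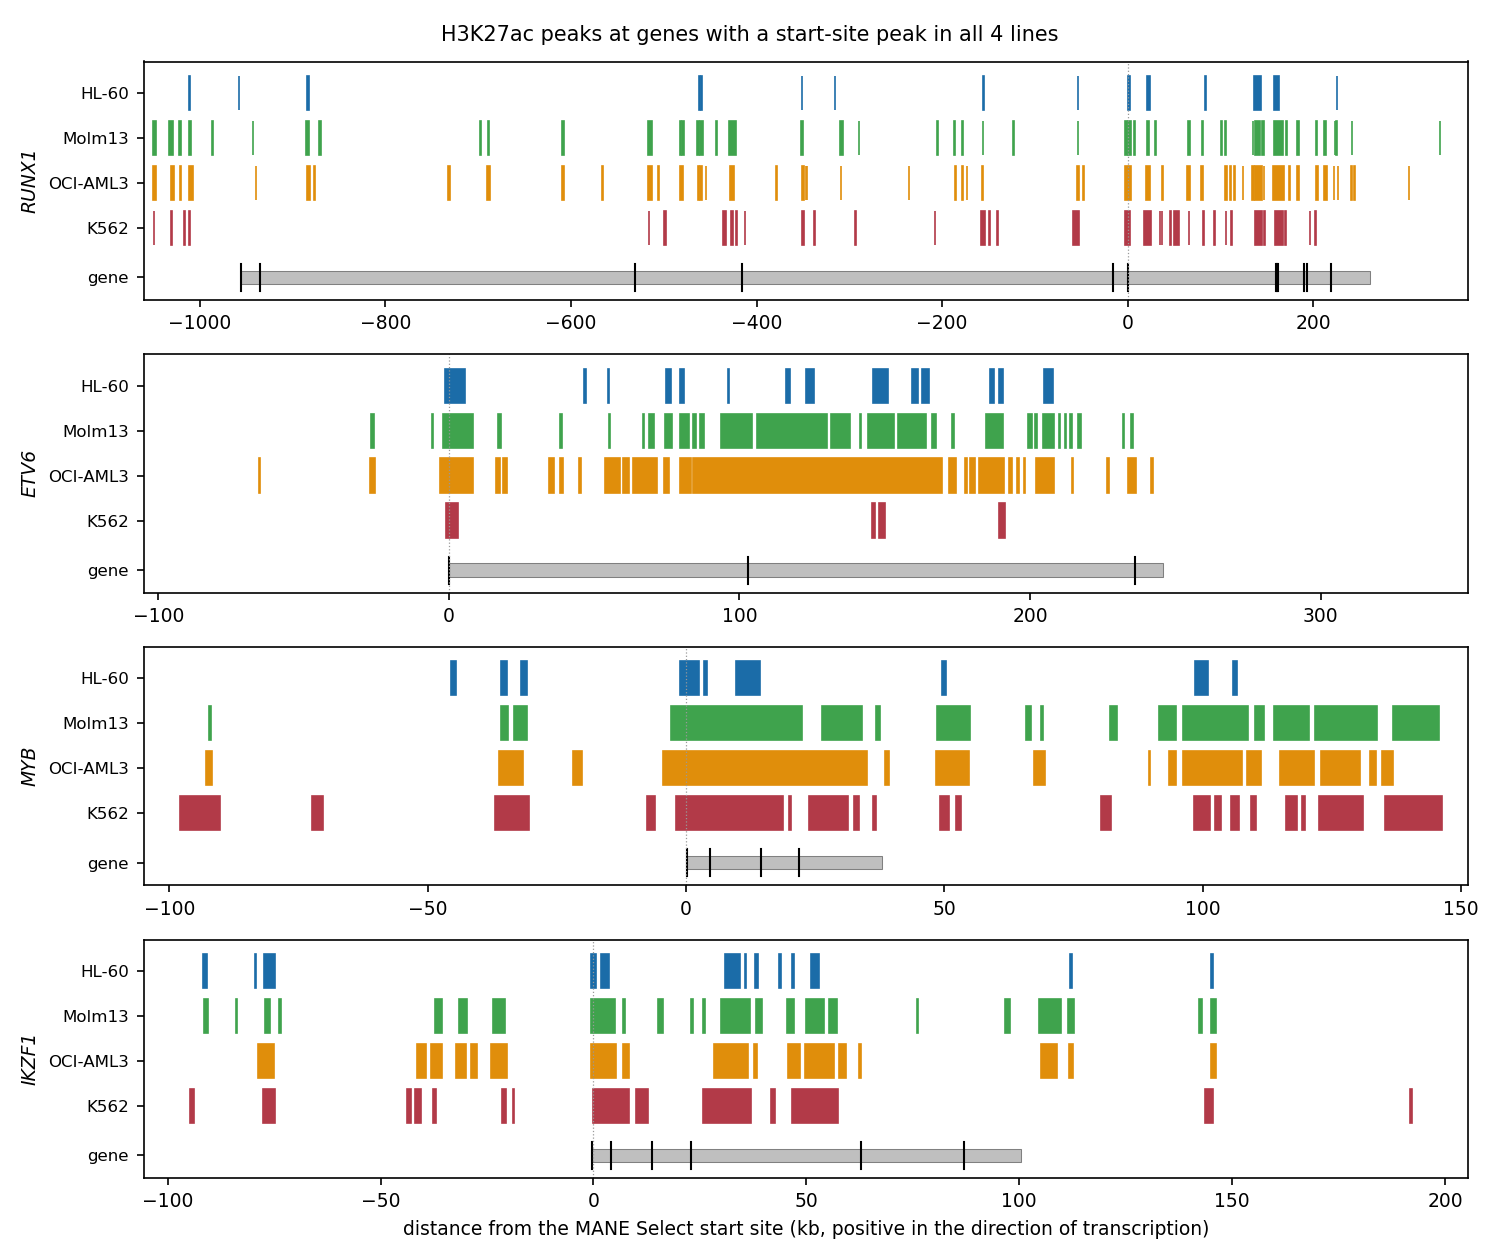
Peaks of each line (coloured boxes, 1 row per line) at RUNX1, ETV6, MYB and IKZF1 against the distance from the MANE Select start site in kb, positive in the direction of transcription; the grey bar is the gene and black ticks are its promoters, and boxes carry an outline that keeps narrow peaks visible. All 4 rows hold a box within 500 bp of the MANE Select promoter, the longest box is the OCI-AML3 peak of 85.5 kb in ETV6, and K562 has 4 boxes at ETV6.

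The share of the gene body lying inside peaks was highest for MYB in each line. In HL-60 it was 1.97% for RUNX1, 3.45% for RUNX2, 2.1% for RUNX3, 2.93% for ERG, 8.05% for FLI1, 11.9% for ETV6, 20.2% for MYB and 10.1% for IKZF1. In Molm13 the same shares were 6.04%, 12.4%, 1.15%, 0, 10.7%, 39.6%, 81.5% and 25.2%. MYB and ETV6 thus led in both. In OCI-AML3 they were 8.09%, 18.4%, 8.43%, 0.942%, 15.9%, 60%, 92.3% and 27.4%. In K562 they were 5.65%, 3.85%, 0, 0.305%, 0, 3.4%, 74.5% and 34.1%. After MYB, IKZF1 was the most covered gene in K562 and ETV6 in the AML lines.

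Among the 11651 protein-coding genes of at least 20 kb, MYB held rank 49 from the top in HL-60, rank 4 in Molm13 and in OCI-AML3 and rank 12 in K562. ETV6 held ranks 219, 59 and 26 in HL-60, Molm13 and OCI-AML3 and rank 5353 in K562. IKZF1 kept a rank between 232 and 316 in every line. The median share over the 8 genes was 5.75% in HL-60 cells, 11.6% in Molm13 cells, 17.2% in OCI-AML3 cells and 3.63% in K562 cells, against 0.689%, 1.9%, 2.46% and 2.7% over the 11651 genes. Of the 8 genes, 4 stood in the top 10% of genes in HL-60, as did 4 in the Molm13 list, 5 in the OCI-AML3 list and 2 in the K562 list. At least 1 peak in the body was found for 8, 7, 8 and 6 genes in HL-60, Molm13, OCI-AML3 and K562, against 63.1%, 72.6%, 74.5% and 69.0% of the 11651.

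**Figure D3:**
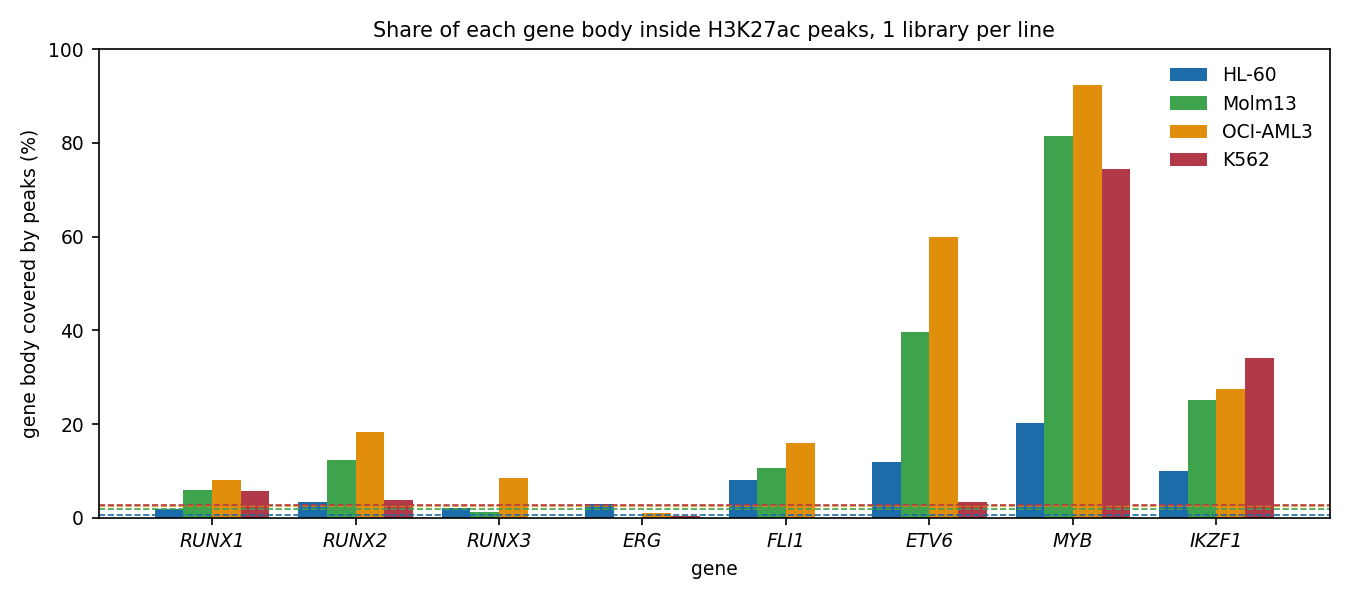
Bars give the percentage of each gene body inside H3K27ac peaks in each line, and dashed lines give the median over the 11651 protein-coding genes of at least 20 kb in the same colour. The MYB bars run from 20.2% in HL-60 to 92.3% in OCI-AML3, and no bar is seen for RUNX3 or FLI1 in K562 or for ERG in Molm13.

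The annotated RUNX1 gene extends far upstream of P1, which lowers its share. Over the span of the MANE Select transcript, 262 kb of the 1217 kb, the RUNX1 share was 7.23% in HL-60 cells, 13.7% in Molm13 cells, 20.2% in OCI-AML3 cells and 15.5% in K562 cells. RUNX2 over its own MANE Select span had 4.89%, 17.1%, 27.4% and 5.82%. RUNX3 had 4.47%, 1.19%, 2.8% and 0, lower than over the whole gene in OCI-AML3 and higher in HL-60. ERG had 5.88%, 0, 0.599% and 0, so that its K562 peak lay outside the span. This span was chosen after the data were seen.

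The gene bodies held 58 peaks in HL-60 cells, 111 in Molm13 cells, 118 in OCI-AML3 cells and 54 in K562 cells, and with the 100 kb on either side 86, 166, 168 and 86. Most body peaks were intronic, from 79.3% in HL-60 to 84.7% in OCI-AML3. Peaks of 10 kb or more numbered 0, 5, 5 and 3, which was 4.5% of the body peaks of Molm13, 4.24% of those of OCI-AML3 and 5.56% of those of K562, against 0.8%, 1.08% and 1.53% of the whole lists. They lay in ETV6, MYB and RUNX2 in Molm13, in those genes and RUNX1 in OCI-AML3, and in MYB and IKZF1 in K562. Peaks of this length were rare throughout the HL-60 list, at 16 of 20772 (0.077%), and its 0 of 58 lies near that share. The count of peaks fell to 52, 48 and 27 in Molm13, OCI-AML3 and K562 when every list was held to the length of the HL-60 list, with the 58 of HL-60 as they were. The HL-60 count was then the highest of the 4, but a count of peaks is not a measure of cover. With equal lengths the covered share of the body was highest in HL-60 at ERG alone, at 2.93%. At MYB it was 20.2% in HL-60, against 79.5%, 92.3% and 69.6% in Molm13, OCI-AML3 and K562. At ETV6 it was 11.9% in HL-60, against 32.5%, 48.5% and 2.05%.

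Overlapping peaks of the 4 lists were joined into regions, 263 at the 8 genes with 100 kb on either side and 74697 in all. Regions of all 4 lines made up 25 of the 263 (9.51%), against 11.7% of all regions. Regions of the 3 AML lines without K562 numbered 22 (8.37%) against 3.88%, and those of K562 alone 33 (12.5%) against 28.0%. Regions of Molm13 and OCI-AML3 alone numbered 36 (13.7%) against 10.1%, and those of HL-60 alone 21 (7.98%) against 8.53%. OCI-AML3 alone marked the most, 61 (23.2%) against 14.6%, and Molm13 alone marked 43 (16.3%) against 12.7%. With lists of equal length the share of Molm13 and OCI-AML3 alone fell below that of all regions, at 7.3% against 8.79%, and that of HL-60 alone rose above it, at 21.2% against 17.8%. The regions of the 3 AML lines without K562 were 6 of 19 at RUNX3, 3 of 14 at FLI1, 4 of 44 at RUNX2, 4 of 34 at ETV6, 3 of 85 at RUNX1, 2 of 31 at IKZF1 and 0 at MYB and ERG. Joining can chain peaks that do not touch each other, so that the region over RUNX2 P2 counts for all 4 lines although the K562 peaks in it lie away from the start site.

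**Figure D4:**
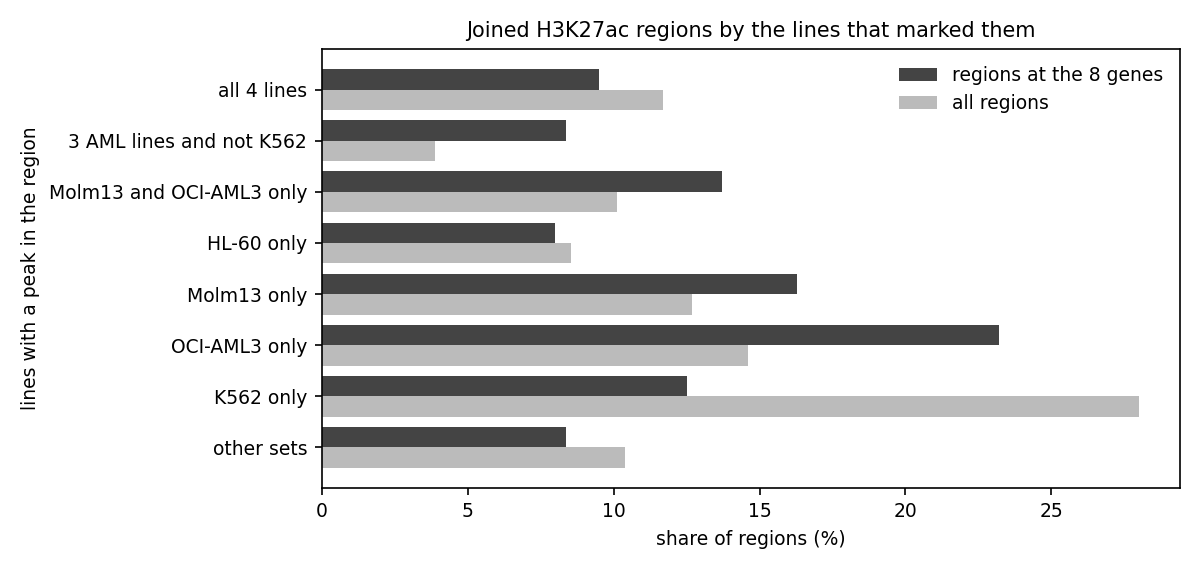
Bars give the share of joined regions by the lines with a peak in them, for the 263 regions at the 8 genes (dark) and for all 74697 regions (light). The dark bar is longer for the 3 AML lines without K562 (8.37% against 3.88%) and shorter for K562 alone (12.5% against 28.0%).

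The lines differed in how much of their covered length they shared at each gene. Over body and flanks, Molm13 and OCI-AML3 shared 70.1% of their joint covered length at MYB, 59.7% at ETV6, 56.3% at FLI1, 54.8% at IKZF1, 48.5% at RUNX2, 46.9% at RUNX1, 43% at RUNX3 and 16.5% at ERG. OCI-AML3 and K562, the lines with the vector, shared 53.6% at MYB and 45.1% at IKZF1 and 5.89% at ETV6. HL-60 and Molm13 shared most at FLI1, with 44.5%, and 17.9% at MYB. The smaller cover of a pair limits its share. At MYB, peaks covered 16.5 kb in HL-60 and 84.3 kb in Molm13, and 15.3 kb were shared. At ETV6, peaks covered 153 kb in OCI-AML3 and 9.47 kb in K562, and 9.02 kb were shared. A low share can thus go with nearly full overlap of the smaller cover. Shares over the whole lists are not given here. At RUNX3, ERG and FLI1 K562 had only 1, 1 and 0 peaks, and it shared 0 kb there with each of the other lines.

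The genes that work with the 8 were read at their start sites. Over all protein-coding genes, 44.7%, 53.9%, 57.7% and 55.9% had a TSS peak in HL-60, Molm13, OCI-AML3 and K562. With at least 3 promoters the shares were 55.4%, 65.9%, 70.6% and 67.9%. Of 10 binding partners and cofactors, 6 had a TSS peak in HL-60 cells, 9 in Molm13 cells, 9 in OCI-AML3 cells and 7 in K562 cells. CBFB, the partner of the RUNX proteins, was marked in all 4 lines, and RUNX1T1, the fusion partner of RUNX1 in a translocation of AML, in none. TLE4, a corepressor, was marked in the 3 AML lines and not in K562. Of 14 stem and progenitor factors, 9, 11, 11 and 11 were marked. TAL1, MECOM and GATA1 were marked in K562 alone, while GFI1 and CEBPA, factors of the granulocyte lineage, were marked in the 3 AML lines and not in K562. Of 13 paralogues of the 8 genes, 7, 9, 9 and 8 were marked, and ETV7, FEV and IKZF3 were marked in no line. None of the 13 paralogues showed the pattern of RUNX2, RUNX3 and FLI1, which 2.96% of the genes with at least 3 promoters showed. The 0 of 13 lies near that share.

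The genes whose shares of covered body in the 4 lines lay nearest to those of each of the 8 were read from the genes of at least 20 kb lying over 1 Mb away or on another chromosome. They were GLUD1 and NOXRED1 for RUNX1, ALDH9A1 for RUNX2, TRIM22 and SFTPD for RUNX3, SERINC2 and CRACDL for ERG, XYLT1 and NEK6 for FLI1, KIAA0930 and AHRR for ETV6, HNRNPU and TRIM27 for MYB, and PYM1 and ZNRF1 for IKZF1. The distance over the 4 lines was smallest for ERG, at 0.479 percentage points. For ETV6 the nearest gene, KIAA0930, lay 10 percentage points away. For MYB the nearest, HNRNPU, lay 7.9 points away and the next, TRIM27, 43.7.

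In K562 cells carrying guides against LTR2B, a family of retroviral long terminal repeats, the list of dCas9 peaks held none within 100 kb of the 8 genes, against a share of 5.05% of all protein-coding genes with such a peak, so that 0 of 8 lies near the background. The nearest lay 714 kb from RUNX1 and the farthest of the nearest 16922 kb from FLI1.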

How the data were processed

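H3K27ac peak lists of 4 cell lines, 1 library each, and 1 dCas9 list of K562 were used, out of 19 samples in 16 groups; the other samples were not analysed here. Per the labels and the study's methods, the authors trimmed reads with Trim Galore (version 0.4.5 in the submitters' notes), aligned them to hg38 with Bowtie2 (2.3.4 in those notes, while the methods name another version), kept uniquely mapped reads and called peaks with MACS2 (2.1.1), with the broad option for histone marks. The control library is not given in the sources used here. The deposited lists give a score, the fold enrichment (a ratio), and the −log10 p-value and −log10 q-value of each peak. Each H3K27ac list had a largest q-value of 0.0947 to 0.0995, above the stated threshold of 0.05. Broad calling also uses a second, looser threshold, whose value is not given in the sources used here. Read numbers are not in the lists, so depth is unknown and no interval was given.

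Groups were taken from the titles. Peaks on chromosomes 1 to 22, X and Y were used. Genes, start sites and MANE Select transcripts came from GENCODE v44 on hg38, and coordinates are 1-based. A gene was marked when a peak lay within 500 bp of any of its start sites, overlaps needed 1 bp, and start sites within 1 kb were joined. A percentile is the share of peaks of the list with a lower fold enrichment. All 8 genes were named, with the 2 genes of nearest shares for each (1 for RUNX2), and genes of other lists where they were exceptions. A few further items are not reported here. The genes and lists were chosen with earlier results of these data known. Alternatives were a q-value below 0.05 or 0.001, lists of equal length (the 20772 strongest peaks by −log10 p), peaks within 1 kb merged, other start-site windows and transcript sets, 50% overlap, a flank of 50 kb, and leaving out peaks at other genes. Python 3.11.15, NumPy 2.4.6 and matplotlib 3.10.9 were used. The overlap code was tested on simulated data and against bedtools 2.31.1.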

Additional observations from a re-analysis of the deposited data

How the results depend on the processing

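The start-site counts of 7, 7, 8 and 4 genes kept within 1.5 times their value under all alternatives run, and the calls of single genes changed once, when RUNX3 in HL-60 lost its call with basic protein-coding transcripts alone. Counts of peaks depended on the threshold. With a q-value below 0.001 the gene bodies held 24 (HL-60), 42 (Molm13), 50 (OCI-AML3) and 21 (K562) peaks, and with 100 kb on either side 34, 67, 77 and 32. With lists of equal length the bodies held 52, 48 and 27 in Molm13, OCI-AML3 and K562, and with the flanks 83, 75 and 42. Regions also moved. With a q-value below 0.001, 13 were marked in all 4 lines, 11 in the 3 AML lines without K562 (11.2% against 5.33% of all regions), 15 in Molm13 and OCI-AML3 only (15.3% against 14.9%), and 5, 10, 24 and 7 in HL-60, Molm13, OCI-AML3 or K562 only. With equal lengths, 14 were marked in the 3 AML lines without K562 (10.2% against 6.3%), 10 in Molm13 and OCI-AML3 only (7.3% against 8.79%, where the reported share lay above that of all regions), and 18, 18 and 13 in Molm13, OCI-AML3 or K562 only. These alternatives keep fewer peaks by construction. Of 96 recomputed shares of a covered body, 16 moved by more than 1.5 times, and the ERG share in K562 fell to 0 with a q-value below 0.05. Some of the 96 could not move. HL-60 set the equal length, and the shares of 0 at RUNX3 and FLI1 in K562 and at ERG in Molm13 stay 0 when peaks are removed. The MANE Select span, chosen after seeing the data, left the body counts within 1.5 times. No paired analysis was possible because each line had 1 library and the samples carry no replicate numbers. Depth is unknown, so absence of a peak cannot be told apart from low depth.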
